A study of Caenorhabditis elegans with 2 samples.

Results

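Chaperone genes were examined as 1 group across the cytosol, the endoplasmic reticulum (ER) and the mitochondria. They were taken from the Ensembl annotation as every protein-coding gene whose symbol starts with hsp-, dnj-, cct- or pfd-, together with daf-21, which this annotation lists as hsp-90. This gave 65 genes of 19973 nuclear protein-coding genes. The measurement was chromatin immunoprecipitation with sequencing of GEI-8 in Caenorhabditis elegans. GEI-8 is related to NCoR and SMRT, vertebrate corepressors that bring histone deacetylases to nuclear receptors. The 2 biological replicates were whole L4 larvae of strain OP589, labelled as pooled male and female and as 48 hours old, after the culture had been brought into step by starving bleached first-stage animals. The strain carries the unc-119(tm4063) mutation and the insertion wgIs589, which holds gei-8::TY1::EGFP::3xFLAG and an unc-119(+) rescue gene, and an antibody against GFP was used for precipitation. Both replicates came from this strain and belong to 1 group, so no conditions are compared, and in whole animals a site used in few cells cannot be told apart from a weak one. An untagged strain was not analysed here. The larvae were not described as heat-shocked or otherwise stressed.

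Chaperones bind unfolded or partly folded proteins and help them reach or keep their shape. HSP70 proteins do so in cycles of ATP hydrolysis that J proteins start, HSP90 proteins act on clients at a later stage, the chaperonins fold proteins inside a closed chamber, and prefoldin hands nascent chains to the cytosolic chaperonin. Small heat shock proteins hold unfolded proteins without ATP. Some chaperone genes are active in all growing cells, while others are nearly silent until heat or another stress, when the factor HSF-1 binds heat shock elements in their promoters.

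Each deposited list ranks its peaks by the authors' signal value, with rank 1 the strongest. Lists of 30000 peaks, which include background, were deposited for each replicate and for both pooled, and the reproducible list holds 1053 peaks, all of which were the strongest of the pooled list. The promoter window of a gene ran over 1000 bp upstream and 200 bp downstream from its annotated 5′ end, and a gene is called bound below when it held a reproducible summit. Each rank given for a gene is that of the strongest peak of the window in that list. The ranks of a gene in different lists can therefore belong to different summits. For a single replicate its own 1053 strongest peaks were used. Read counts were not used here, so the depth of each library is unknown, and the intervals cover counting error of genes only.

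Of the 65 chaperone genes, 7 were bound, or 10.8% (exact Clopper-Pearson 95% interval 4.44 to 20.9%), against 2.06% of all protein-coding genes. Replicate 1 alone also had 7 (10.8%, against 1.85% of all genes) and replicate 2 alone had 8 (12.3%, against 2.17% of all genes). The mean share over the replicates was 11.5% ± 1.09 for chaperone genes and 2.01% ± 0.227 for all protein-coding genes (SD, n = 2 each). The 7 genes were dnj-13, hsp-3, hsp-1, hsp-60, cct-8, pfd-1 and dnj-19, and each was bound in both replicates. They cover the cytosol, the ER and the mitochondria, and none is a small heat shock protein gene or an hsp-16 gene. Their pooled signal was 152 to 314, and the reproducible list had a lowest signal of 125 and a median of 162. With the relaxed pooled list, 27 of the 65 genes (41.5%) had a summit in the window, against 30.8% of all protein-coding genes. No test was run over the list, since genes are not replicates and these genes were chosen with earlier results of the data known.

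The DNA at these summits is shown because the bound group is defined by these 7 sites. Each sequence is read from the reference genome (build WBcel235, the same as ce11) on the strand of the named gene, and covers 75 bases on each side of the pooled summit except where a protein-coding exon begins. Capitals mark any match to a pair of facing heat shock units (GAANNTTC or TTCNNGAA), to CCAAT, or to CACGTG, all searched on both strands, so that CCAAT may appear as ATTGG. The sites are chrII:11545427-11545577 (dnj-13, plus strand), chrX:6092146-6092296 (hsp-3, minus), chrIV:17278516-17278666 (hsp-1, plus), chrIII:1619063-1619213 (hsp-60, plus), chrIV:1094257-1094407 (cct-8, minus), chrIV:11149714-11149864 (pfd-1, plus) and chrV:5505168-5505252 (dnj-19, minus).
dnj-13: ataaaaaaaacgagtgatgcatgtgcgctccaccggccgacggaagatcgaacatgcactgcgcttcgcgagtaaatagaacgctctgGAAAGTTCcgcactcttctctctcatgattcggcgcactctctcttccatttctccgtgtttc
hsp-3: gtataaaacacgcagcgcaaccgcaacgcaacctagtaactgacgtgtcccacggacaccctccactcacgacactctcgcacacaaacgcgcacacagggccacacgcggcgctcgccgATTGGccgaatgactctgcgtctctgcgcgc
hsp-1: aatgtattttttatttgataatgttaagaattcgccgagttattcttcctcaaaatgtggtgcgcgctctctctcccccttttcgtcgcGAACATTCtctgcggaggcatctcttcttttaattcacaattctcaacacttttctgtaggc
hsp-60: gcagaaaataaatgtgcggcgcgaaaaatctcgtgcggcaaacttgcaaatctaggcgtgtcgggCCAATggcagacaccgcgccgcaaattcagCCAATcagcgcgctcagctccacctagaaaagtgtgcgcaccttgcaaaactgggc
cct-8: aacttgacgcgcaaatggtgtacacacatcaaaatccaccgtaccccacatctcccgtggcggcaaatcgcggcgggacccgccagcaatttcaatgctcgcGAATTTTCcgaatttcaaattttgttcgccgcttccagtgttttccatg
pfd-1: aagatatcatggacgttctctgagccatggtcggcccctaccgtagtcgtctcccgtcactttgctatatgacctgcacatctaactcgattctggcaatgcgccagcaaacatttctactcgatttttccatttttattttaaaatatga
dnj-19: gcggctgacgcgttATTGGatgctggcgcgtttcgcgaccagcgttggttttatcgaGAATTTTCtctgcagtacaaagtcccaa

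Paired heat shock units of the form GAANNTTC lay within 75 bp of the summit at 4 of the 7 sites, those of dnj-13, hsp-1, cct-8 and dnj-19, and at 5.60% of all 1053 reproducible peaks. The other form, TTCNNGAA, lay at none of the 7 and at 5.60% of all reproducible peaks. The full element, here 3 adjoining units, lay at none of the 7 and at 0.855% of all. CCAAT occurred at 3 of the 7 (hsp-3, hsp-60 and dnj-19) and at 22.2% of all, and CACGTG at none of the 7 and at 11.3% of all. The 7 windows had a median of 51.0% G or C (lowest 40.4%, at hsp-1, and highest 61.6%, at hsp-3), and the median over all reproducible peaks was 46.4% (quartiles 41.1 and 51.7%). A match describes the letters present and is not a measured binding site. The GAANNTTC form was also frequent at chaperone genes that were not bound. In the 300 bp upstream of the 5′ end it occurred at 3 of the 7 bound genes (42.9%) and 26 of the 58 others (44.8%). Among all protein-coding genes it occurred at 3789 of 19973. The shares of bound and other chaperone genes in that window lie close together. At hsp-1, hsp-60, cct-8, pfd-1 and dnj-19 the summit lay 324 to 604 bp upstream, beyond this window. The promoter counts therefore do not weigh the matches found at the summits.

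The 6 HSP70 genes each had a peak in the pooled list, against 30.8% of all protein-coding genes. Among the 6, hsp-3 and hsp-1, a pair that is active without stress, stood at the top. The peak of hsp-3, which encodes an ER HSP70 of the BiP type, was ranked 81 in the pooled list, 98 in replicate 1 and 80 in replicate 2. Its summit was 97 bp upstream of the 5′ end in intergenic DNA (chrX:6091996-6092445). The peak of hsp-1, the constitutive cytosolic HSP70 gene, was ranked 93, 144 and 71 in the same lists, with an intergenic summit 368 bp upstream (chrIV:17278489-17278662). The remaining HSP70 genes were far weaker. The second BiP gene, hsp-4, which is induced by unfolded proteins in the ER, was ranked 4573, 2069 and 8527. The mitochondrial gene hsp-6 was ranked 8520 in the pooled list and 4395 in replicate 2, and replicate 1 had no peak. The gene hsp-110, which encodes a nucleotide exchange factor for HSP70, was ranked 17633, 29729 and 2587. At hsp-4 and hsp-110 the replicate summits lay more than 100 bp apart, so their replicate ranks do not describe the same summit. The heat-induced gene hsp-70 was ranked 20575 in the pooled list and 7501 in replicate 1, with no peak in replicate 2. The paired genes of the ER thus had ranks of 81 for hsp-3 and 4573 for hsp-4 in the pooled list, and in each replicate hsp-3 was the higher-ranked of them.

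**Figure D1:**
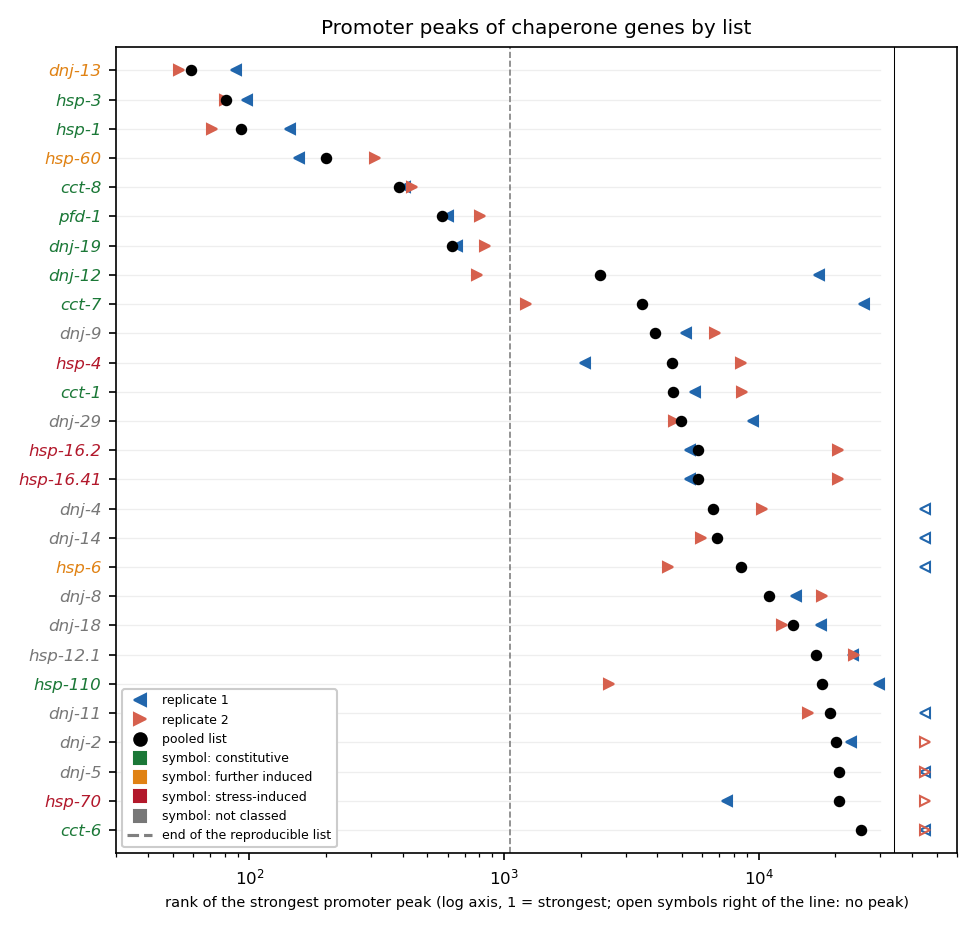
Rank of the strongest promoter peak (horizontal log axis) for the 27 chaperone genes with a peak in the pooled list, one gene per line, with triangles for the replicates and circles for the pooled list. The 7 uppermost genes lie left of the dashed line at rank 1053 in all 3 lists, and below them the replicates spread apart, as at dnj-12 (17267 and 785).

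The J protein genes supplied the strongest peak of the group. DNJ-13, a cytosolic J protein of the DNAJB type that starts the HSP70 cycle, had a promoter peak ranked 59 in the pooled list, 89 in replicate 1 and 53 in replicate 2 (chrII:11545277-11545726). The summit lay 199 bp upstream, inside the annotated ncRNA gene F54D5.22. The peak of dnj-19, a cytosolic J protein gene of the DNAJA type, was ranked 623, 654 and 845 (chrV:5505018-5505467), with the summit 386 bp upstream and inside the ncRNA gene C24G6.10. The 5′ end of the divergent nuclear hormone receptor gene nhr-47 is 396 bp from that of dnj-19. This summit was therefore much nearer to nhr-47 than to dnj-19. Another cytosolic gene, dnj-12, also of the DNAJA type, divided the replicates, with rank 785 in replicate 2 and 17267 in replicate 1 (pooled rank 2373, chrI:14756593-14757042). It was the 1 chaperone gene that was bound in 1 replicate and not in the other. Its replicate summits lay more than 100 bp apart. The other J protein genes with a pooled peak ranged from dnj-9 (3908, 5180 and 6716) and dnj-29, the relative of the ER translocation factor SEC63 (4947, 9516 and 4653), to dnj-5 (20567 in the pooled list, with no peak in either replicate). Of the 29 J protein genes, 2 were bound (6.9%, exact interval 0.846 to 22.8%), against 2.06% of all protein-coding genes, a share inside that interval. In the pooled list 41.4% of the J protein genes had a peak, against 30.8% of all genes, and 15 had no peak in any of the 3 relaxed lists. The 15 included dnj-7 and dnj-20 of the ER and dnj-10 and dnj-21 of the mitochondria, where DNJ-21 belongs to the protein import motor.

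The chaperonins were represented by 1 gene from each of 2 compartments. The hsp-60 gene, which encodes the mitochondrial chaperonin, had a peak ranked 199 in the pooled list, 156 in replicate 1 and 312 in replicate 2. Its summit was 604 bp upstream in intergenic DNA (chrIII:1618913-1619362). The same summit lay 209 bp upstream of the divergent gene Y22D7AL.10, which RefSeq annotates as the mitochondrial 10 kDa heat shock protein, the lid of that chaperonin. The 5′ ends of these neighbours are 813 bp apart. A further reproducible peak (pooled rank 404, replicate ranks 668 and 273) lay 3031 bp upstream of hsp-60, beyond the promoter window.

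In each of the multi-subunit complexes 1 subunit gene was bound, with a summit nearer to the 5′ end of a divergent gene. Neither subunit gene kept its peak when each peak was given to the gene with the nearest 5′ end. The cytosolic chaperonin CCT is a ring of different subunits encoded by cct-1 to cct-8. Among all protein-coding genes 2.06% were bound, and of these 8 genes 1 was bound. With so few genes, that count cannot be told apart from the share of all genes. The bound gene was cct-8, with rank 386 in the pooled list, 409 in replicate 1 and 433 in replicate 2 and a summit 412 bp upstream (chrIV:1094107-1094556). The strongest peaks of cct-7 were ranked 3483, 25923 and 1222, with replicate summits more than 100 bp apart. The peak of cct-1 was ranked 4600, 5604 and 8579, and that of cct-6 25202 in the pooled list with no peak in either replicate. A peak of cct-2 was listed in replicate 1, at rank 25111. The remaining genes, cct-3, cct-4 and cct-5, had no peak in any list. Of the 6 prefoldin genes, pfd-1 was bound (ranks 572, 601 and 806, summit 324 bp upstream, chrIV:11149564-11150013). The exact interval of 0.421 to 64.1% for 1 of 6 includes the share of all genes. The other prefoldin genes had no peak in the pooled list, and pfd-6 reached rank 10247 in replicate 2.

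The HSP90 genes of the cytosol and the mitochondria had no promoter peak. Neither hsp-90, which encodes the cytosolic HSP90, nor hsp-75, which encodes the mitochondrial relative TRAP1, had a summit in the window in any of the 3 relaxed lists. A reproducible peak did lie within hsp-90, in a coding exon 2447 bp downstream of the 5′ end (chrV:14687140-14687589, pooled rank 695, replicate ranks 1030 and 534). Its summit was 2167 bp from the nearest tRNA or snoRNA gene. Another small set of members had reproducible peaks outside the window. One lay in the 3′ UTR of hsp-12.3, a small heat shock protein gene (pooled rank 210, replicate ranks 176 and 268), which is also within the promoter window of F38E11.9. One lay 2661 bp upstream of hsp-25 (646, 552 and 1236), and one 2972 bp upstream of pfd-1 (724, 2038 and 327), inside an intron of pigq-1.

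**Figure D2:**
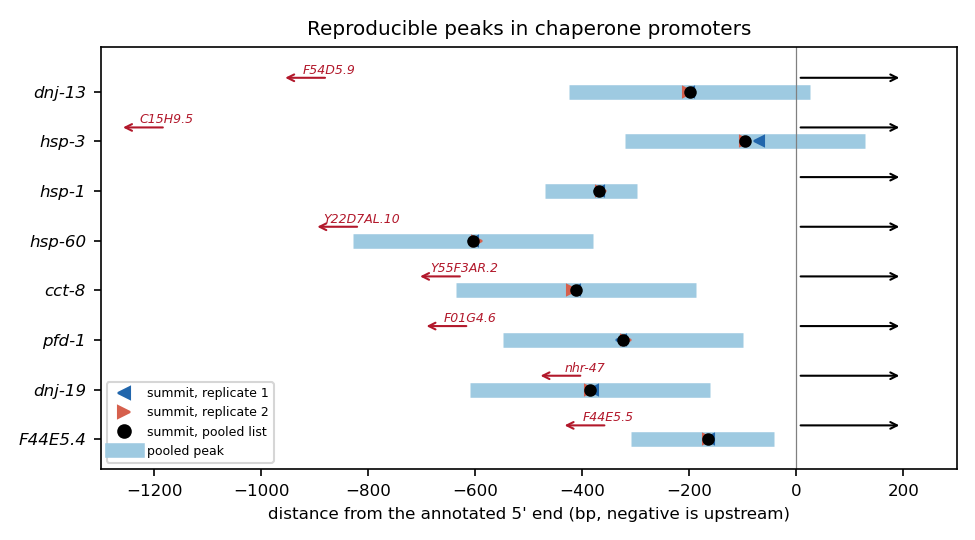
Position of the reproducible promoter peaks relative to the annotated 5′ end of each gene, in bp, for the 7 bound chaperone genes and F44E5.4, with the pooled peak as a bar, summits as symbols, the gene as a black arrow and the divergent neighbour as a red arrow. Summits of the lists fall within 27 bp of each other at every one of the 7 genes.

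The bound sites are described here by position and neighbouring genes, and the window itself limits the positions. Summits of the 3 lists were within 27 bp at hsp-3 and within 10 bp at the other 6 genes. All 7 summits were upstream of the 5′ end, by 97 to 604 bp with a median of 368 bp. Of them 5 were intergenic and 2 lay in ncRNA genes, and none was closer than 1455 bp to a tRNA or snoRNA gene. A protein-coding gene with a divergent 5′ end within 2000 bp stood next to 6 of the 7 bound genes and 29 of the 58 others. Among all protein-coding genes 27.8% had such a neighbour, and 38.2% of the bound ones did. At 5 of the 7 genes the summit also lay in the promoter window of that neighbour, so the peak cannot be given to 1 gene by position. These neighbours were F54D5.9 (an F-box gene, beside dnj-13), Y22D7AL.10 (beside hsp-60), Y55F3AR.2 (a thioredoxin domain gene, beside cct-8), F01G4.6 (a mitochondrial phosphate carrier gene, beside pfd-1) and nhr-47 (a nuclear hormone receptor gene, beside dnj-19). When each peak was given to the gene with the nearest 5′ end, 3 chaperone genes kept a peak, namely dnj-13, hsp-1 and hsp-3 (4.62%, against 1.72% of all genes). Another 16 chaperone genes have the end of a same-strand gene within 1000 bp upstream, as genes inside operons do, and none of these was bound. Of all protein-coding genes arranged in that way 112 of 5766 were bound, and with 16 genes a count of 0 cannot be told apart from that share. Among all protein-coding genes, 28.9% lie in that way, and 27.3% of the bound ones did.

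The bound genes belonged to the constitutive and further induced classes. These classes follow general knowledge and were chosen with earlier results of the data known. Their shares and intervals are therefore a description and not a test. Of the 23 genes listed as constitutive, 5 were bound (21.7%, exact interval 7.46 to 43.7%), against 2.06% of all protein-coding genes, and these were hsp-3, hsp-1, cct-8, pfd-1 and dnj-19. Taken by replicate, 23.9% ± 3.07 of them were bound (SD, n = 2). The count fell to 2 when each peak was given to 1 gene and to 3 with the stronger 50% of the peaks. Of the 4 genes that are expressed without stress and induced further by it, dnj-13 and hsp-60 were bound (exact interval 6.76 to 93.2%), hsp-6 had the weak peak given above, and dnj-27, an ER J protein gene, had a peak in replicate 1 alone, at rank 21111. Of the 8 stress-induced genes, which are hsp-4, hsp-70 and the 6 hsp-16 genes, none was bound in the reproducible list or in either replicate. Of these 8 genes, 4 are the near-identical hsp-16 copies described next and hsp-16.2 and hsp-16.41 share 1 promoter, so few separate promoters stand behind the 0. With so few genes, a count of 0 cannot be told apart from the 2.06% share of all protein-coding genes, and no difference between the classes is drawn from it. None of the 30 genes that were put in no class was bound, and that count cannot be told apart from the same share.

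**Figure D3:**
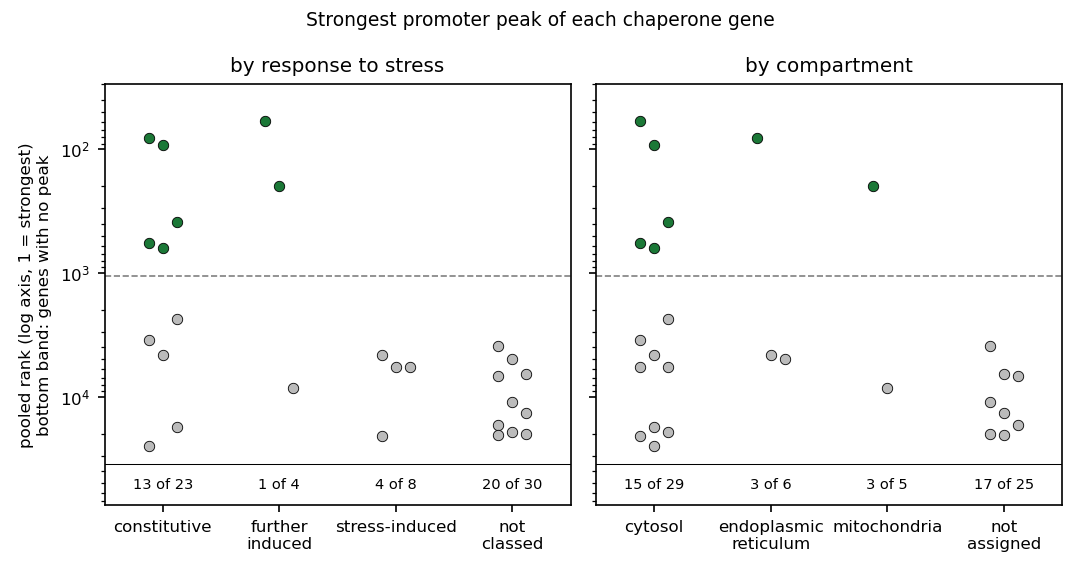
Pooled rank of the strongest promoter peak of each chaperone gene (vertical log axis, stronger upward), grouped by response to stress (left) and by compartment (right), with genes on the reproducible list in green and the number without a pooled peak in the bottom band. Green points appear among constitutive and further induced genes and in each of the 3 compartments, and the best stress-induced gene is hsp-4 at rank 4573.

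The hsp-16 genes, which encode small heat shock proteins and respond strongly to heat, had weak peaks or none. The divergent pair hsp-16.2 and hsp-16.41 share an intergenic stretch of 220 bp, and 1 peak with its summit inside it was ranked 5755 in the pooled list, 5351 in replicate 1 and 20439 in replicate 2. The hsp-16.1 and hsp-16.48 genes form a second divergent pair that is present as an inverted duplicate, so each symbol stands for a pair of genes. None of these 4 genes had a peak in any list. Their bodies are identical between the copies in every 25-base word, and so are 86.2% (hsp-16.1) and 100% (hsp-16.48) of the words in the 300 bp upstream. Reads from such copies cannot be placed uniquely, and how the authors treated them is not given in the sources used here, so no peak there does not show that GEI-8 is absent. The remaining small heat shock protein genes had no bound member, and hsp-12.1 was the 1 other with a pooled peak (rank 16821).

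Another pair of HSP70 genes, F44E5.4 and F44E5.5, falls outside the symbol rule and belongs to the list of co-chaperones and stress regulators. RefSeq annotates both as heat shock protein 70, and they are known as heat-inducible. Their divergent promoter held 1 peak that was ranked 40 in the pooled list, 49 in replicate 1 and 31 in replicate 2 (chrII:11759353-11759620), which is stronger than any peak at the 65 chaperone genes. Its intergenic summit was 166 bp upstream of F44E5.4 and 185 bp upstream of F44E5.5. Counted with the stress-induced genes, a choice made after their values were seen, they bring that class to 2 of 10 genes with 1 peak. Among all protein-coding genes 2.06% were bound. Since the choice followed the values, no comparison with the constitutive class is drawn from this count.

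A pair of promoters is printed because both hold full heat shock elements, while the first has a reproducible peak and the second a weak one. The first is that of F44E5.4 (chrII:11759327-11759626, minus strand) and the second is the shared stretch of hsp-16.2 and hsp-16.41, on the strand of hsp-16.41 (chrV:1804958-1805177, plus strand), and capitals mark the motifs listed above. The first holds 7 matches to GAANNTTC and 7 to TTCNNGAA over 300 bases, and the full element in 10 overlapping positions. Part of its start reads almost as the reverse complement of part of its end, so some of these matches are mirror copies and not separate elements. The second holds 1 match to GAANNTTC and 2 to TTCNNGAA over 220 bases, and the full element at 1 position.
F44E5.4: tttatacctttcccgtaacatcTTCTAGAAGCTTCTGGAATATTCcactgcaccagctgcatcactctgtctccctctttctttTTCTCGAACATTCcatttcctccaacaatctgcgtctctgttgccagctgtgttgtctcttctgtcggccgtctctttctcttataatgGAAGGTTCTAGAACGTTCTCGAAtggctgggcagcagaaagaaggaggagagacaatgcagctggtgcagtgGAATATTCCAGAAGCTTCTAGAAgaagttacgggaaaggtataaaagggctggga
hsp-16.2 and hsp-16.41: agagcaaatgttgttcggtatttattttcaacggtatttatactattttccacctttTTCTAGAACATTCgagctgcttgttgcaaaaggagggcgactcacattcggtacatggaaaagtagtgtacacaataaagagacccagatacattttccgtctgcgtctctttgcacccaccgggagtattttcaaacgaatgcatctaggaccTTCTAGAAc

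Promoters of most stress-induced genes held the full heat shock element. In the 300 bp upstream of the 5′ end, the full element occurred at 7 of the 8 stress-induced genes (87.5%), with hsp-4 as the exception, and at 1.92% of all protein-coding genes. The duplicated and divergent hsp-16 genes share much of this DNA, so the 7 are not independent. Among the constitutive genes it occurred at 4 of 23 (17.4%), which were hsp-1, hsp-90, hsp-110 and dnj-12, and at none of the 4 further induced genes or of the 30 genes in no class. Of the 7 bound chaperone genes, hsp-1 alone held it in that window (14.3%), and 10 of the 58 others did (17.2%), so the shares lie close together. At 5 of the 7 the summit lay beyond these 300 bp. The bound promoter of F44E5.4 and F44E5.5, which is not counted in these classes, held the element as printed above. CCAAT was found at 3 of the 7 bound genes (42.9%) and at 45.1% of all protein-coding genes. The window had a median of 31.0% G or C at the 7 bound genes and 33.3% at all genes.

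**Figure D4:**
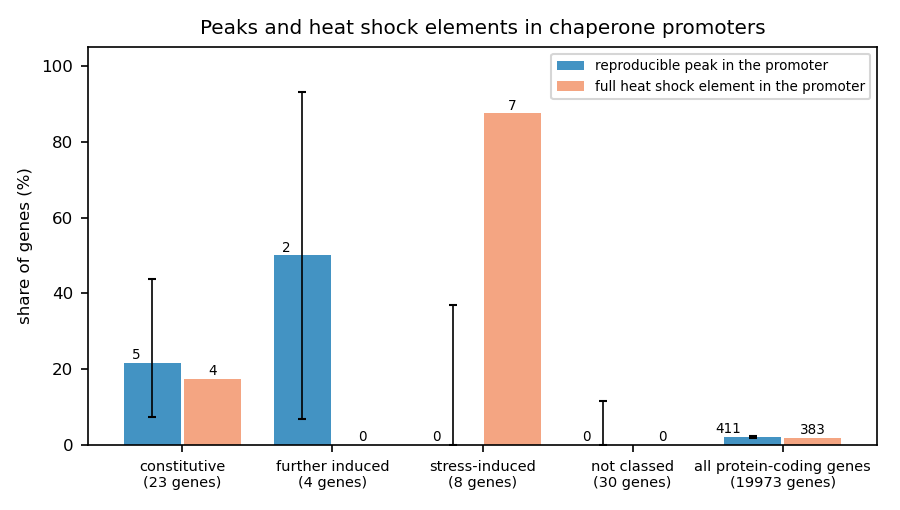
Share of genes in each class with a reproducible promoter peak (blue, with exact 95% intervals) and with a full heat shock element in the 300 bp upstream (orange), in %, with the number of genes above each bar. The stress-induced class has 7 of 8 genes with the element and 0 with a peak, and the further induced class has 2 of 4 with a peak and 0 with the element. The interval of the stress-induced class counts hsp-16 copies as separate genes. Peaks were counted over 1000 bp upstream and 200 bp downstream, a wider window than that of the elements. The bound promoter of F44E5.4 and F44E5.5, which holds the element, is not in these classes.

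In the reproducible list each compartment had at least 1 bound gene, and 2.06% of all protein-coding genes were bound. In the cytosol 5 of 29 chaperone genes were bound (17.2%, exact interval 5.85 to 35.8%), in the ER 1 of 6 (16.7%, interval 0.421 to 64.1%) and in the mitochondria 1 of 5 (interval 0.505 to 71.6%). The ER member was hsp-3 and the mitochondrial member hsp-60, and both were bound in each replicate. The mitochondrial count was 0 with a window of 500 bp upstream to 100 bp downstream. With each peak given to 1 gene it was also 0, and the cytosolic count was then 2. Replicate 1 had 5 bound cytosolic genes and replicate 2 had 6, with dnj-12 as the gene added. None of the 25 genes that were given no compartment was bound (upper bound 13.7%), and these were J protein genes and small heat shock protein genes. The wide intervals leave differences between the compartments undetectable with these numbers of genes. These compartment lists, too, were chosen with earlier results of the data known.

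In the pooled list a gap in rank followed the bound chaperone genes, with dnj-19 at 623 and the next member, dnj-12, at 2373. The count stayed at 7 when 2000 peaks were counted, while the share of all genes grew to 3.42%. In replicate 2 there was no such gap, since dnj-12 (785) stood above pfd-1 (806) and dnj-19 (845) and cct-7 followed at 1222. That gave 9 genes at 2000 peaks (13.8%), against 3.65% of all genes. At 5000 peaks the pooled list gave 13 of the 65 genes, against 7.07% of all genes, while replicate 1 alone gave 8 and replicate 2 alone gave 12. Among the 27 genes with a pooled peak the median rank was 5755, and among the 6145 such protein-coding genes it was 12619. Of the 65 genes, 32 had no peak in any of the 3 relaxed lists, namely 9 constitutive, 4 stress-induced and 19 unclassed genes. That count was not made for all genes. In the pooled list alone 38 of the 65 chaperone genes and 13828 of the 19973 protein-coding genes had no peak. For the 19 chaperone genes with a peak in both replicates the ranks had a Spearman rho of 0.65, and for 3697 protein-coding genes 0.50, as a description across genes that share libraries and a control. The replicate summits lay within 100 bp of each other at 11 of these 19 genes and at 2008 of the 3697.

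**Figure D5:**
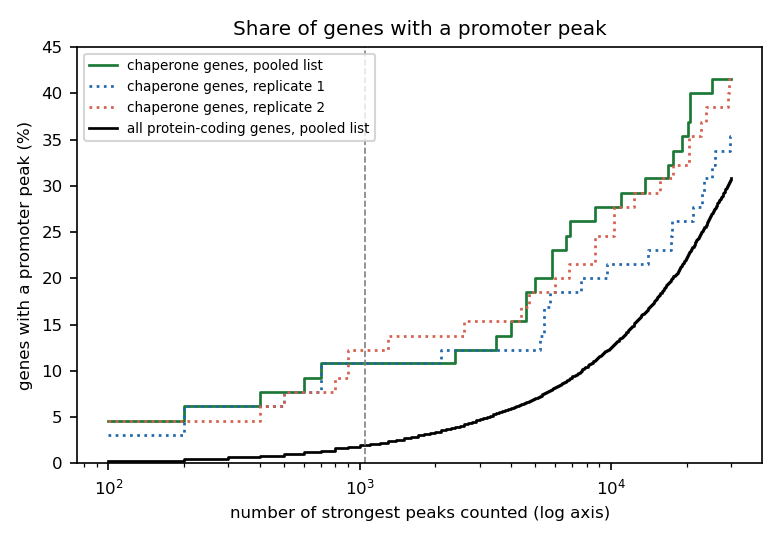
Share of genes with a summit in the promoter window (vertical axis, in %) as more of the strongest peaks are counted (log axis), for chaperone genes in the pooled list and each replicate and for all protein-coding genes. At the dashed line of 1053 peaks the chaperone share is 10.8% and that of all genes 2.06%, and at 30000 peaks they are 41.5% and 30.8%.

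Genes that work with these chaperones or control them were counted from a separate list of 32 genes, also chosen with earlier results known. Of these 6 were bound (18.8%, exact interval 7.21 to 36.4%, against 2.06% of all genes), with a mean of 20.3% ± 2.21 between replicates (SD, n = 2). The interval counts F44E5.4 and F44E5.5 as separate genes though they share 1 peak. With each peak given to 1 gene, 5 were bound (15.6%, against 1.72% of all genes). Besides the F44E5.4 and F44E5.5 pair the bound genes included enpl-1, the ER HSP90 gene (ranks 247, 183 and 411, chrIV:11119011-11119460), and crt-1, the gene of the ER lectin chaperone calreticulin (320, 362 and 326, chrV:6100628-6101077). The others encode BAG domain proteins, which release nucleotide from HSP70, and were unc-23 (511, 822 and 375, chrV:8936111-8936560) and bag-1 (851, 13733 and 249, chrI:6564424-6564873). The bag-1 peak was strong in replicate 2 and not in replicate 1. The enpl-1 summit also lay in the promoter window of the divergent gene imp-2, and the crt-1 summit inside the ncRNA gene Y38A10A.8. Among the regulators, xbp-1, the transcription factor of the unfolded protein response, was just below the reproducible list at rank 1138 (905 in replicate 1 and 2298 in replicate 2), with its summit in the 5′ UTR. The heat shock factor gene hsf-1 was ranked 27805 in the pooled list with no peak in either replicate, and atfs-1, the factor of the mitochondrial response, had no peak in any list. Of the disulfide isomerase genes, pdi-2 and pdi-3 were ranked 1914 and 1998 in the pooled list, pdi-1 was ranked 6158 and pdi-6 had no pooled peak. The bound ER genes over both lists were therefore hsp-3, enpl-1 and crt-1. Other ER genes of the lists, among them hsp-4 and the disulfide isomerase genes, were not bound. No share was counted for the ER over both lists.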

How the data were processed

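Peaks were deposited as narrowPeak lists of GEI-8 chromatin immunoprecipitation in L4 larvae. Per the texts deposited beside the files, both replicates were set against the same control alignment (1 in all), so the lists share it, and positions are in ce11. Aligner and peak caller are not named in the sources used here. Column 7 holds the signal that the authors' caller gave each peak, which was used by rank within its list. The deposited −log10 q-value was not used to select peaks. The reproducible list equals the 1053 strongest pooled peaks. The summit comes from the deposited peak offset.

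Peaks were joined to Ensembl release 115 of WBcel235 (ce11), and all lay within its chromosomes. For each gene and list the strongest summit in the window of 1000 bp upstream to 200 bp downstream was taken. Because trans-splicing removes the first part of many worm transcripts, real starts may be further upstream. Intervals are exact Clopper-Pearson (95%). The assignment was tested on simulated peaks. Python 3.11.15, numpy 2.4.6, scipy 1.17.1 and matplotlib 3.10.9 were used.

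Members and the lists of induction, compartment and co-chaperones were chosen with earlier results of these data known. Named genes are all bound members, the next 6 by pooled rank, all ranked members of the classes, hsp-4, hsp-70 and the hsp-16 genes, bound co-chaperones, hsf-1, xbp-1 and atfs-1. The isomerase genes, hsp-12.1, dnj-5, Y22D7AL.10, members named as without a pooled peak, the neighbours of bound genes and members with peaks outside the window were named after their values were seen. The lists follow general knowledge of these genes, and expression was not measured here.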

Additional observations from a re-analysis of the deposited data

How the results depend on the processing

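Over the settings fixed for the chaperone genes, between 3 of 65 (4.62%) and 8 of 65 (12.3%) were bound, and 7 of 49 (14.3%) without genes close behind another. Of all protein-coding genes 1.07 to 3.58% were bound. With each peak given to 1 gene, the counts were 3 chaperone genes, 2 constitutive, 1 further induced, 2 cytosolic and 0 mitochondrial, because the divergent neighbour was nearer. With the stronger 50% of the peaks, 3 constitutive and 3 cytosolic genes were bound, since fewer peaks were used. The window of 500 bp upstream to 100 bp downstream gave 1 further induced and 0 mitochondrial genes, as the hsp-60 summit lay outside it. With 2 times as many peaks the chaperone genes stayed at 7, while the co-chaperone and regulator list reached 10 of 32. Adding F44E5.4 and F44E5.5, chosen after the data were seen, gave 2 stress-induced genes. With them and Y22D7AL.10 the chaperone genes bound were 10 of 68. The median rank of chaperone genes with a peak was 5755, and it was 4947 and 6716 with the windows of 500 and 2000 bp upstream. Without replicate 1 it was 6716 and without replicate 2 it was 5604. Leaving out each replicate in turn gave 7 to 8 chaperone genes, 5 to 6 constitutive, 5 to 6 cytosolic and 6 to 7 co-chaperone genes. Leaving out peaks near tRNA or snoRNA genes, any overlap of the peak, the 5′ end of any transcript and leaving out genes close behind another kept 7 chaperone genes bound. Small classes limit every share, and depth per library is unknown.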
